A study of Caenorhabditis elegans with 6 samples.

Results

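The superoxide dismutases and catalases of Caenorhabditis elegans are the 8 genes sod-1 to sod-5 and ctl-1 to ctl-3. They were chosen by name, out of 18217 genes to which the platform annotation assigns a probe set of the array, and 7 probe sets were annotated to them. GYY4137, a slow donor of hydrogen sulfide (H2S), was given to worms of the wild-type strain N2 (Bristol), labelled as L4 larvae, and 3 Affymetrix arrays were made from whole animals. Per the labels, exposure was to 100 uM of the compound, in liquid medium for 48 h and on plates for 12 h more. Another 3 arrays came from control worms of the same strain and labelled stage, raised under standard laboratory conditions; whether these spent the same time in liquid medium is not given in the sources used here. Nothing in the labels says that the arrays of a group came from separate cultures, so the spread that the p-values rest on may be technical.

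Superoxide dismutases turn superoxide, a by-product of respiration, into hydrogen peroxide and oxygen, and catalases turn hydrogen peroxide into water and oxygen. In worms, sod-1 encodes the main copper/zinc enzyme of the cytosol and sod-5 a minor one, sod-4 encodes an extracellular or membrane-bound copper/zinc enzyme, and sod-2 and sod-3 encode manganese enzymes of the mitochondrial matrix. Among the catalases, ctl-1 encodes a cytosolic enzyme and ctl-2 the peroxisomal one, and the 3 genes lie next to each other in a row, with 0 protein-coding genes between ctl-2 and ctl-1 and 0 between ctl-1 and ctl-3. Transcripts of sod-3 are a widely used readout of DAF-16, the FOXO factor held back by insulin signalling.

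The labelled tissue, whole animal, was checked against marker genes. Markers of intestine (4 of 5), body wall muscle (5 of 5), pharynx (3 of 4), neurons (4 of 6), hypodermis and cuticle (5 of 5), germ line (5 of 5), sperm (3 of 4), oocytes and eggshell (5 of 5) and yolk (4 of 4) were above the log2 floor of 4 on all 6 arrays. The intestinal factor gene elt-2, the pharyngeal factor gene pha-4 and the sperm gene spe-9 were below it on all 6. The yolk gene vit-3, also chosen as a marker, had no probe set annotated to it alone and was left out. The collagen gene col-19, a marker of adults, averaged 9.65 ± 0.05 on GYY4137 arrays and 9.75 ± 0.04 on control arrays (SD, n = 3 each), which goes against the labelled larval stage. GYY4137 replicate 3 stood apart, with Pearson correlations across probe sets of 0.940 to 0.965 with the other 5 arrays, against 0.979 to 0.993 among those 5. The differences of the enzymes and the counts of the lists are given with and without it.

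All values are the deposited GCRMA values on the log2 scale, where 1 unit is a 2-fold difference. A probe set's brightness depends on its own probes, so values are compared between groups within a probe set and not between genes. A probe set was tested when it lay above 4 on at least 3 of the 6 arrays, and limma's Benjamini-Hochberg adjusted p under 0.05, over all 8053 probe sets tested, was the threshold. Of the 7 probe sets, 4 were tested and 3, those of sod-3, sod-4 and sod-5, lay below the floor on all 6 arrays. None of the 4 tested passed (0 of 4, against 1.50% of all probe sets tested), by limma. At an unadjusted p under 0.05, 1 of the 4 passed, against 17.7% of all probe sets tested. The catalase probe sets were higher on every GYY4137 array than on any control array, while the sod-1 and sod-2 groups overlapped. Groups that did not overlap were thus found for 2 of the 4, against 29.0% of all probe sets tested in either direction and 13.4% with GYY4137 higher.

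**Figure D1:**
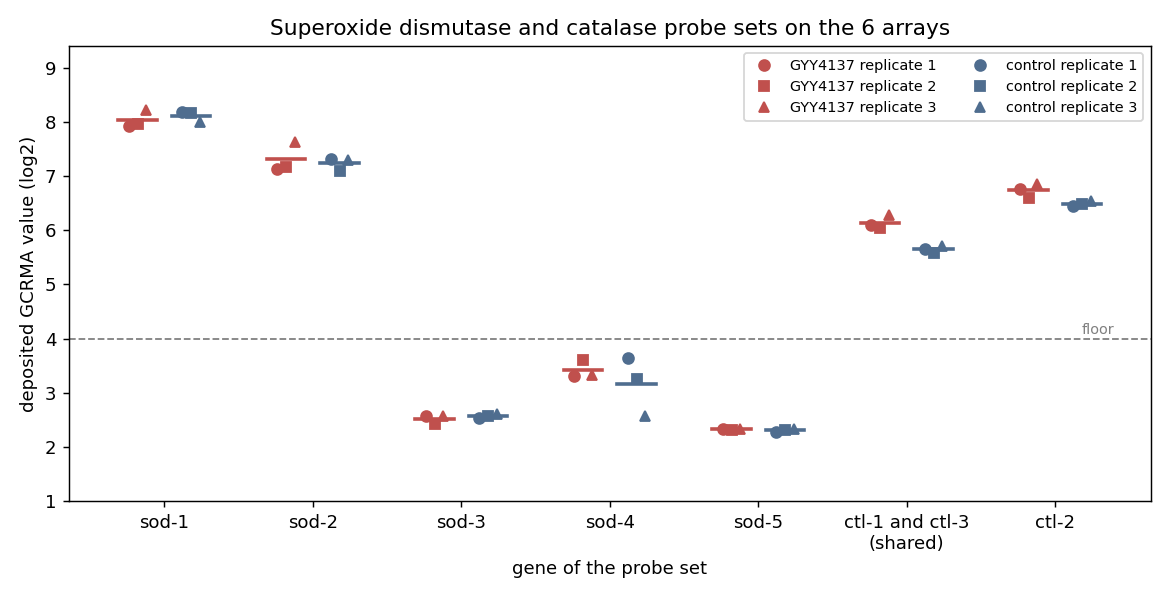
Deposited GCRMA value (log2, vertical axis) of each of the 7 probe sets on each array; symbols are arrays, horizontal bars are group means (n = 3) and the dashed line is the floor of 4. The sod-3, sod-4 and sod-5 points lie below the floor on all 6 arrays, and the catalase points of GYY4137 arrays lie above those of control arrays. Heights of different genes are not comparable.

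The cytosolic enzyme gene sod-1 (probe set 192125_s_at) was at 7.92, 7.96 and 8.22 on GYY4137 replicates 1 to 3, against 8.19, 8.16 and 7.99 on control replicates 1 to 3. The groups overlapped, because GYY4137 replicate 3 was the highest of all 6 arrays. The difference, GYY4137 minus control, was -0.08 ± 0.13 (SE, n = 3 per group), a fold change of 0.949 with a 95% interval of 0.772 to 1.17 (limma adjusted p = 0.754). Without GYY4137 replicate 3 the difference was -0.17 (limma adjusted p = 0.443), and over the 6 leave-outs it ran from -0.17 to -0.02. The probe set is of a type that can bind related transcripts.

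The mitochondrial manganese enzyme gene sod-2 (192654_at) was at 7.13, 7.16 and 7.64 on GYY4137 replicates 1 to 3, against 7.31, 7.09 and 7.30 on control replicates 1 to 3. Here too the groups overlapped, and GYY4137 replicate 3 was 0.49 higher than the other GYY4137 arrays on average. The difference was 0.08 ± 0.16 (SE, n = 3 per group), a fold change of 1.06 with an interval of 0.811 to 1.37 (limma adjusted p = 0.804). Its sign rests on that array: without GYY4137 replicate 3 the difference was -0.08 (limma adjusted p = 0.737), and with array weights, where limma gives less weight to arrays that agree less with the rest, it was -0.09. For both genes the interval leaves room for changes of either sign, but not for a 2-fold change.

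Transcripts of sod-3, the second mitochondrial manganese enzyme and DAF-16 readout, were not detectable above the floor. The sod-3 probe set (192617_at) was at 2.56, 2.42 and 2.56 on GYY4137 replicates 1 to 3, against 2.54, 2.57 and 2.60 on control replicates 1 to 3. Its mean over the 6 arrays exceeded that of 26.9% of all probe sets, and the groups overlapped. With no filter on low values, the difference was -0.05 ± 0.05 (SE, n = 3 per group, limma adjusted p = 0.828), and it was -0.08 without GYY4137 replicate 3. A value this low gives no firm level, so a change below the floor cannot be seen here.

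The extracellular enzyme gene sod-4 (191998_at) was at 3.31, 3.61 and 3.33 on GYY4137 replicates 1 to 3, against 3.64, 3.25 and 2.57 on control replicates 1 to 3. The controls spanned 1.07 and took in the whole GYY4137 range of 0.30. The difference was 0.26 ± 0.29 without a filter (SE, n = 3 per group, limma adjusted p = 0.877), and 0.31 without GYY4137 replicate 3. The minor cytosolic enzyme gene sod-5 (190168_at) was at 2.33, 2.31 and 2.33 on GYY4137 replicates 1 to 3, against 2.28, 2.31 and 2.33 on control replicates 1 to 3. All 6 values lay between 2.28 and 2.33, and their mean exceeded that of only 8.73% of all probe sets. The sod-5 difference was 0.02 ± 0.03 (SE, n = 3 per group, limma adjusted p = 0.951), and 0.01 without GYY4137 replicate 3.

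The catalase genes ctl-1 and ctl-3 share 1 probe set (188587_s_at), so cytosolic ctl-1 and its neighbour ctl-3 cannot be told apart. The shared probe set was at 6.10, 6.04 and 6.28 on GYY4137 replicates 1 to 3, against 5.65, 5.57 and 5.70 on control replicates 1 to 3. Every GYY4137 array was above every control array. The difference was 0.50 ± 0.11 (SE, n = 3 per group), a 1.41-fold higher value with a 95% interval of 1.17 to 1.70. It did not pass the threshold (limma unadjusted p = 0.00289, adjusted p = 0.0924), and 267 of the 8053 probe sets, this one included, had an adjusted p under 0.1. The difference ran from 0.43 to 0.55 over the 6 leave-outs, with limma adjusted p from 0.0553, without GYY4137 replicate 3, to 0.324. With array weights it was 0.41 and passed (limma adjusted p = 0.00719). Array weights called 1389 of 8053 probe sets in all, against 121 without them.

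The peroxisomal catalase gene ctl-2 (188687_s_at) was at 6.76, 6.60 and 6.85 on GYY4137 replicates 1 to 3, against 6.45, 6.48 and 6.54 on control replicates 1 to 3. The groups did not overlap, but the lowest GYY4137 array lay only just above the highest control array. The difference was 0.25 ± 0.11 (SE, n = 3 per group), a fold change of 1.19 with an interval from 0.988 to 1.42, and it did not pass (limma unadjusted p = 0.0633, adjusted p = 0.307). Without GYY4137 replicate 3 it was 0.19 (limma adjusted p = 0.383). This probe set, too, is of a type that can bind related transcripts, and signal from the other catalases cannot be told apart from that of ctl-2.

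**Figure D2:**
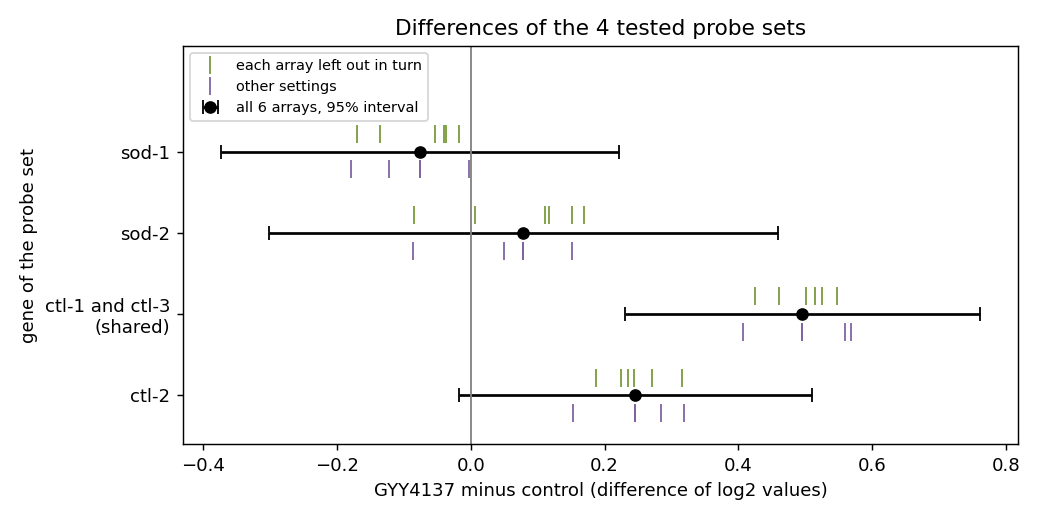
Difference of log2 values, GYY4137 minus control (horizontal axis), for the 4 tested probe sets; black points and bars are the limma estimate and its 95% interval over all 6 arrays, green ticks leave out 1 array each and purple ticks use other settings. The interval of the shared ctl-1 and ctl-3 probe set lies above 0, that of ctl-2 reaches -0.02, and those of sod-1 and sod-2 span 0.

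The catalase probe sets were also compared with each other within each array. The shared ctl-1 and ctl-3 value minus the ctl-2 value of the same array was -0.66, -0.56 and -0.57 on GYY4137 replicates 1 to 3, against -0.79, -0.91 and -0.83 on control replicates 1 to 3. This quantity averaged -0.60 ± 0.05 on GYY4137 arrays and -0.85 ± 0.06 on control arrays (SD, n = 3 each), a difference of 0.25 without overlap between the groups, and of 0.24 without GYY4137 replicate 3. How often other pairs of probe sets separate the groups in this way was not examined. For the catalase quantity, the two-sided exact permutation p was 0.1, the smallest that 3 against 3 arrays allow. This test could not reach 0.05 whatever the values, so it does not decide whether the catalase probe sets changed by different amounts. The fitted intervals of their differences overlapped (0.23 to 0.76 for the shared probe set and -0.02 to 0.51 for ctl-2). Both come from the same arrays, so overlap of the separate intervals does not tell whether the differences are alike. The sign of the quantity itself depends on the probes and does not compare the levels of the genes.

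**Figure D3:**
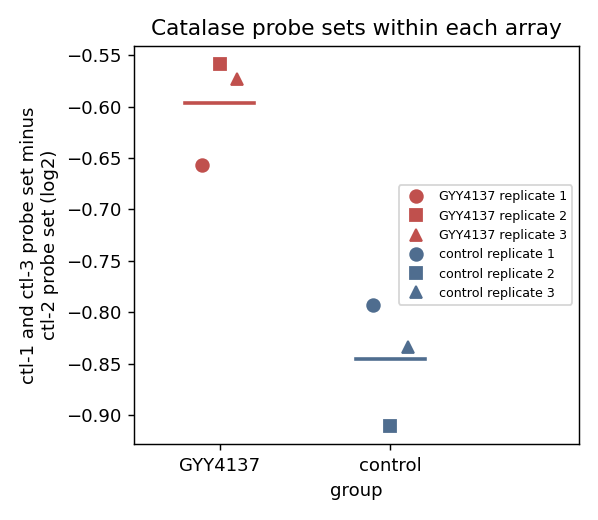
Shared ctl-1 and ctl-3 value minus ctl-2 value within each array (log2, vertical axis), with 3 arrays a group and bars at the group means. All 3 GYY4137 arrays lie above all 3 control arrays.

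The 4 tested probe sets had their highest GYY4137 value on GYY4137 replicate 3, as had 39.4% of all 8053 probe sets tested. Against the average of the other GYY4137 arrays, that array was 0.21 higher for ctl-1 and ctl-3 and 0.18 higher for ctl-2. In whole worms, fewer cells of a type and less RNA per cell cannot be told apart. The mean log2 value of the intestine markers ran from 6.32 to 6.50 on GYY4137 arrays and from 6.37 to 6.43 on control arrays, and so overlapped. The mean of the sperm markers was higher on all GYY4137 arrays (6.15 to 6.56 on GYY4137 arrays and 5.87 to 5.92 on control arrays), and 3 of the 4 members were higher without overlap. The mean of the oocyte and eggshell markers was lower on all GYY4137 arrays (8.03 to 8.24 on GYY4137 arrays and 8.52 to 8.60 on control arrays), with 3 of 5 members lower without overlap. The mean of the hypodermis and cuticle markers was higher by a narrow gap (7.60 to 7.94 on GYY4137 arrays and 7.43 to 7.59 on control arrays), but its members were split, with 2 of 5 higher and 2 of 5, col-19 and lin-26, lower without overlap. The means of the body wall muscle markers (8.74 to 9.06 on GYY4137 arrays and 9.07 to 9.32 on control arrays) and of the pharynx markers (4.82 to 5.03 on GYY4137 arrays and 5.06 to 5.40 on control arrays) were lower by narrow gaps, with 3 of 5 and 1 of 4 members lower without overlap. None of the markers in these 5 lists passed (smallest limma adjusted p = 0.0839). At an unadjusted p under 0.05 by limma there were 3 sperm, 3 oocyte and eggshell and 2 hypodermis and cuticle markers. There were also 3 body wall muscle markers and 1 pharynx marker. Of all probe sets tested, 17.7% were under 0.05, and 29.0% had groups without overlap (13.4% with GYY4137 higher). The group ranges of the neuron, germ line and yolk means overlapped. Without overlap, 2 of 6 neuron markers were higher, and 2 of 5 germ line and 1 of 4 yolk markers lower. Of these, only the 2 neuron markers had an unadjusted p under 0.05 by limma. The part of these markers in the catalase differences was not tested.

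Across the 6 arrays, the shared ctl-1 and ctl-3 probe set and that of ctl-2 had a Pearson correlation of 0.94, which includes the difference between the groups and any transcripts that both probe sets bind. Those of sod-1 and sod-2 had a correlation of 0.58. Among 6217 other genes tested, those most like ctl-1 and ctl-3 were Y66H1A.5, the FMRFamide-like peptide gene flp-12 and pho-14, each with r = 0.99, and 313 genes had r above 0.9. Those most like ctl-2 were C16B8.3 (r = 0.995), Y41D4A.4 and the cyclophilin gene cyn-1 (0.99 each), with 182 genes above 0.9. The sod-1 pattern was closest to Y49F6B.9 (0.99), the formin gene inft-2 and Y82E9BR.14 (0.98 each). The sod-2 pattern was closest to the acid ceramidase gene asah-1 and the glutathione S-transferase gene gst-36 (0.99 each) and to F49C12.12 (0.98). With 6 arrays, likeness of this size is a description only.

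Other genes that make, remove or respond to superoxide and peroxide were set beside the enzymes in 7 lists, with 1 probe set a gene. Of 14 tested peroxide-removing and thiol redox genes, 0 rose, 0 fell and 14 did not pass, against 1.17% raised and 0.322% lowered among all 6220 genes tested by limma. At an unadjusted p under 0.05 by limma, 1 was higher and 0 were lower, against 9.53% and 7.83% of all genes tested. The list's median difference was 0.00, where the median over all genes tested was -0.04. Without GYY4137 replicate 3 the median was 0.05 and 1 gene was called, the glutathione peroxidase gene gpx-5 (-0.70, limma adjusted p = 0.0126). With array weights, gpx-5 was also the call made. Of all 8053 probe sets, 381 were called without that array and 1389 with array weights. The peroxiredoxin gene prdx-6 was nearest to passing (0.27 ± 0.11, limma adjusted p = 0.261), followed by the glutaredoxin genes glrx-10 (0.27 ± 0.14) and glrx-21 (0.30 ± 0.18) and the mitochondrial peroxiredoxin gene prdx-3 (0.20 ± 0.13). The abundant cytosolic peroxiredoxin gene prdx-2 differed by 0.01 ± 0.11, and the glutathione reductase gene gsr-1 by -0.00 ± 0.11; both were chosen after their values were seen.

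Among genes of the NADPH oxidase, which makes peroxide at the cuticle, and of the heme peroxidases, 3 of 12 on the array were tested. The heme peroxidase gene skpo-3 was at 5.06, 4.82 and 4.98 on GYY4137 replicates 1 to 3, against 5.60, 5.76 and 5.80 on control replicates 1 to 3. It fell by 0.77 ± 0.12 on the log2 scale (SE, n = 3 per group, limma adjusted p = 0.0337), with no overlap between groups. Among filters and leave-outs, its call ended with no filter (limma adjusted p = 0.0747) and without any 1 of the 3 control arrays or GYY4137 replicate 1 or 2. The call held without GYY4137 replicate 3, and the difference stayed between -0.83 and -0.69 in every setting that tested skpo-3. In the leave-outs that ended the call, calls over all 8053 probe sets fell from 121 to between 12 and 63. The moulting peroxidase gene mlt-7 differed by -0.42 ± 0.15 and skpo-1 by 0.01 ± 0.14, and neither passed. Once GYY4137 replicate 3 was left out, mlt-7 was at -0.58 and passed (limma adjusted p = 0.0153), as it did with array weights (-0.57, limma adjusted p = 0.00178). The oxidase gene bli-3 lay below the floor on all 6 arrays, with means of 3.24 on GYY4137 arrays and 3.44 on control arrays. The list had 0 genes raised, 1 lowered and 2 not passing, with a median difference of -0.42. With 3 genes, that median is the mlt-7 value. With no filter, the median over all 12 genes was 0.01 and 0 were called, though 9 of them had not passed the filter on low values. Among all 6220 genes tested, limma called 0.322% lowered. At an unadjusted p under 0.05 by limma, 2 of the 3 were lower, against 7.83% of all genes tested. Without GYY4137 replicate 3 the list had 2 lowered and a median of -0.58, where 381 of 8053 probe sets were called in all.

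Of 15 tested genes for respiratory chain subunits where superoxide can form, and for ubiquinone synthesis, 0 rose, 0 fell and 15 did not pass (median 0.05), and at an unadjusted p under 0.05 limma also gave 0 of 15. Without GYY4137 replicate 3 the count was again 0, and the median turned to -0.07. The largest differences by p were those of the ubiquinone synthesis gene clk-1 (-0.22 ± 0.12), the complex II genes sdhd-1 (0.22 ± 0.15), mev-1 (0.21 ± 0.15) and sdha-2 (0.17 ± 0.13). Peroxisome import and peroxisomal beta-oxidation genes, which serve the organelle of ctl-2, had 0 of 9 passing in either direction (median -0.04). At an unadjusted p under 0.05 by limma, 1 was lower, against 7.83% of all genes tested. Leaving out GYY4137 replicate 3 again gave 0 passing, with a median of 0.08. The import gene prx-19 differed by -0.29 ± 0.11 (limma adjusted p = 0.238) and daf-22, a thiolase of peroxisomal beta-oxidation, by 0.29 ± 0.14.

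Of 4 tested genes of copper or heme supply, 1 rose, 0 fell and 3 did not pass (median 0.13). Among all 6220 genes tested, limma called 1.17% raised and 0.322% lowered. The counts of the list were the same without GYY4137 replicate 3 (median 0.15), where 381 of 8053 probe sets were called. At an unadjusted p under 0.05 by limma, 1 of the 4 was higher and 1 lower, against 9.53% and 7.83% of all genes tested. The heme transporter gene hrg-1 was at 5.28, 5.79 and 5.76 on GYY4137 replicates 1 to 3, against 4.57, 4.28 and 4.21 on control replicates 1 to 3. It rose by 1.26 ± 0.18 on the log2 scale, 2.40-fold (SE, n = 3 per group, limma adjusted p = 0.0223), and the groups did not overlap. Among filters and leave-outs, its call ended with no filter (limma adjusted p = 0.110) and without any 1 of the 3 control arrays or GYY4137 replicate 2. The call held without GYY4137 replicate 1 or 3, and the difference ran from 1.17 to 1.43 over the settings. In the leave-outs that ended it, calls over all 8053 probe sets fell from 121 to between 12 and 27. The hrg-1 probe set can bind related transcripts. The copper chaperone gene sco-1 differed by -0.30 ± 0.11 and was called lower with array weights (limma adjusted p = 0.0484), cuc-1 by 0.23 ± 0.19 and the copper transporter gene cua-1 by 0.02 ± 0.19. The manganese transporter genes smf-1, smf-2 and smf-3 and the heme-responsive genes hrg-3 and hrg-4 were not tested, since each was above the floor on at most 1 array.

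**Figure D4:**
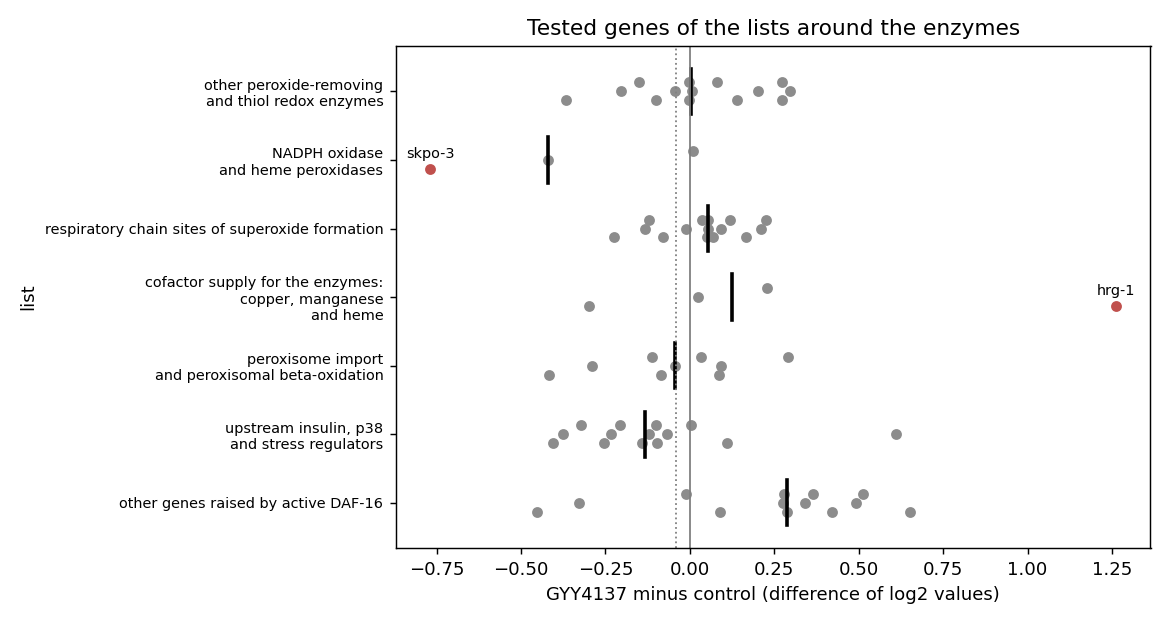
Difference of log2 values, GYY4137 minus control (horizontal axis), for each tested gene of the 7 lists; red points are genes with limma adjusted p under 0.05, black bars are list medians, and the dotted line is the median over all 6220 genes tested (-0.04). Only skpo-3 and hrg-1 are red.

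Regulators in the insulin, p38 and stress pathways had 0 of 14 passing, with 3 above control, 11 below it and a median of -0.13; 43.4% of all genes tested were above control. At an unadjusted p under 0.05 by limma, 1, pqm-1, was higher and 0 were lower, against 9.53% and 7.83% of all genes tested. The zinc finger factor gene pqm-1 was at 6.75, 6.94 and 6.80 on GYY4137 replicates 1 to 3, against 6.32, 6.05 and 6.28 on control replicates 1 to 3. The groups did not overlap, and the difference was 0.61 ± 0.12 (SE, n = 3 per group, limma adjusted p = 0.0663). It passed with a floor of 6, with median centring, with array weights and without GYY4137 replicate 3, where the list median was -0.10 and pqm-1 was the 1 call. The insulin pathway kinase genes akt-1 and age-1 differed by -0.38 ± 0.17 and -0.21 ± 0.14, and smk-1 by -0.23 ± 0.16.

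Other genes raised by active DAF-16, the group to which sod-3 belongs by its regulation, had 0 of 13 passing (median 0.29). Without GYY4137 replicate 3, 2 of 13, icl-1 and ftn-1, were raised (median 0.30). With array weights 6 of 13 were raised, namely icl-1, ftn-1, mtl-1, lys-7, lys-8 and dod-6 (median 0.31). Of all 8053 probe sets tested, 381 were called in either direction without GYY4137 replicate 3 and 1389 with array weights. At an unadjusted p under 0.05, 6 of the 13 were higher and 0 lower, against 9.53% and 7.83% of all genes tested. The smallest p-values in it were those of the glyoxylate cycle gene icl-1 (0.65 ± 0.15, limma adjusted p = 0.0898), the ferritin gene ftn-1 (0.49 ± 0.15), dod-6 (0.51 ± 0.17) and the lysozyme gene lys-8 (0.42 ± 0.14). Values of the metallothionein gene mtl-1 were 4.59, 4.43 and 4.02 on GYY4137 replicates 1 to 3, against 3.86, 3.91 and 4.25 on control replicates 1 to 3. These groups overlapped, and the mtl-1 difference of 0.34 ± 0.18 did not pass (limma adjusted p = 0.356), except with array weights (0.50, limma adjusted p = 0.0108). The small heat shock gene hsp-16.2 differed the other way, by -0.45 ± 0.24 (limma adjusted p = 0.359); mtl-1 and hsp-16.2 were chosen after their values were seen.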

How the data were processed

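Each array has 1 deposited log2 value per probe set, produced by the authors with GCRMA per the submitters' processing notes; GCRMA adjusts for background using probe base content, brings arrays to a common scale and combines the probes of a set. The log2 scale is read from the values, which run from 1.88 to 13.3. The software version is not given in the sources used here. No further normalization was applied. The number of arrays, 3 per group, limits the precision.

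Gene symbols are those of the platform annotation, brought up to date with RefSeq gene numbers (WBcel235). Of 22625 probe sets, 77 Affymetrix controls were not tested. There were 20766 with 1 symbol, 887 with several and 972 with none. Apart from the controls, those that passed the floor entered the fit and the shares over all probe sets, whatever their symbols. Values given by gene came from probe sets with 1 symbol, except the shared catalase probe set. For the lists, each gene had its probe set with the highest mean.

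The difference between the groups was estimated on 8053 probe sets in R 4.3.3 by lmFit and eBayes of limma 3.58.1 (two-sided), and each ± beside a difference is the standard error of this fit. Per list, genes named were those called and up to 4 others with the smallest p; for each enzyme, the 3 genes most like it by Pearson correlation. Members, lists and this rule were chosen with earlier results of these data known. One regulator gene is not reported here. In 10 simulations of this comparison, each with known changes in 200 of 8053 probe sets, 73.3% of 2-fold and 96.5% of 4-fold changes were recovered. On average 5.78% of the calls were false. The simulated noise was independent between arrays and probe sets, with no outlying array. Changes smaller than 2-fold were not simulated, so recovery of differences the size of the catalase ones is not known. Alternatives were other filters, normalizations, variance models, a replicate block, thresholds and each array left out.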

Additional observations from a re-analysis of the deposited data

How the results depend on the processing

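Of the 4 tested probe sets, 0 passed with all 6 arrays, and 1, the shared ctl-1 and ctl-3 probe set, passed with array weights or at adjusted p under 0.1. The sod-2 difference turned to -0.0859 with array weights and to -0.0845 without GYY4137 replicate 3, the low end of its leave-out range, which reached 0.169; the directions of sod-1, ctl-2 and the shared probe set held in the 13 settings run. None of the 8 enzyme genes has a further probe set, so that alternative was not run for them. For list genes, only the probe set with the highest mean was used. Over all probe sets, the 121 calls among 8053 tested became 33 among 22548 with no filter and 80 among 3722 with a floor of 6. With the same 8053 tested, there were 1389 with array weights, 73 with the replicate block and 267 at adjusted p under 0.1. Leaving out an array gave 12 to 381. With a floor of 6 the lists had 1 call among 45 tested, pqm-1, while skpo-3 and hrg-1, the 2 calls of the main fit, were not tested. The 2 calls, among 72 tested, became 0 among 112 with no filter. With the same 72 tested, there were 12 with array weights, 0 with the replicate block and 0 to 7 with an array left out. The cause was not tested. Deviations of same-numbered arrays correlated at 0.11, -0.02 and 0.05, so the numbers were not taken to pair the samples; the replicate block changed no call among the enzymes and ended those of hrg-1 and skpo-3 (limma adjusted p = 0.0579 and 0.0765). Below the floor, at sod-3, sod-4 and sod-5, signal limits what can be seen.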
